A study of Mus musculus with 13 samples.

Results

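The genes described here carry proteins between the endoplasmic reticulum (ER) and the Golgi apparatus. They are 48 mouse genes chosen by name around *Surf4*, a cargo receptor that had the smallest p-value of all genes lower in stressed animals (0.000306, against 0.00106 for *Zfp790*, the next lower gene). The table held 47 of the 48 among its 27111 named features. *Copd* had no row of its own, and it is an older name of delta-COP, whose current symbol *Arcn1* is also among the 48. *Kdelr3* did not pass the count filter, with 24 estimated counts over all samples, between 0 and 9 per sample and 0 in 7 samples. The remaining 46 were tested among 14421 genes.

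The samples were Sertoli cells, the somatic cells that nurse germ cells in the seminiferous tubules, sorted from testes of adult C57Bl/6J males (genotype Bl6 wt) aged 3 to 5 months. Sorting kept diploid, large cells with a high MitoTracker signal and used no transgene or surface marker. The 7 MSUS males had undergone maternal separation joined with stress of the dam, both unpredictable (MSUS). The treatment covered the first 14 postnatal days, with 3 h of separation daily and an irregular schedule, and the stressor for the dam was either swimming at 18°C (5 min) or tube restraint (20 min). The 6 control males were wild-type males of the same genotype without this treatment. Each sample was 1 RNA library made from 5 ng of RNA and is named by its group and its number in the labels. The comparison asks how early postnatal stress affects adult Sertoli cells.

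Secretory proteins leave the ER in vesicles coated with COPII, in which the GTPase Sar1 recruits an inner layer of Sec23 and Sec24 and an outer layer of Sec13 and Sec31. Cargo receptors such as Surf4, Lman1 and the p24 (Tmed) proteins link soluble or membrane-anchored cargo to the coat. COPI, recruited by Arf GTPases, carries receptors and escaped ER proteins back, and the AP-1 adaptor with mannose 6-phosphate receptors sorts lysosomal enzymes at the trans-Golgi network. Sertoli cells secrete large amounts of protein, such as clusterin, and so depend on this route.

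Libraries held 13087108 to 18649819 estimated counts in the control group (median 15435736) and 12701664 to 15693836 in the MSUS group (median 14849668). No pair of libraries was alike within sampling noise, since even the closest differed by 6.11 times that noise. The 9 Sertoli cell markers summed to 12979 to 16021 CPM (counts scaled to a fixed library total) in controls and 13123 to 15536 CPM in MSUS samples, and none of them had a limma p under 0.05. Elongated spermatid markers (4 genes) summed to 847 to 1378 CPM in controls and 730 to 1775 CPM in MSUS samples. Spermatocyte markers summed to 161 to 223 CPM against 105 to 257 CPM, round spermatid markers to 47.4 to 66.5 CPM against 54.5 to 116 CPM, and macrophage markers to at most 0.973 CPM against 1.996 CPM, with *Lyz2* at 0 in every sample. Endothelial markers summed to 51.6 to 67.5 CPM against 53.0 to 72.7 CPM, and 1 of these 4 genes had a limma p under 0.05. The part of other cell types in the results was not tested beyond a fit with the elongated spermatid score, which left the 5 lower calls given next. *Malat1*, a nuclear long non-coding RNA, had 9.16 to 10.69 log2 CPM in controls and 10.16 to 11.28 log2 CPM in MSUS samples. The share of counts on mitochondrially encoded genes was 1.26% to 2.48% in controls and 1.80% to 3.16% in MSUS samples. In such bulk libraries, fewer cells of a type and less RNA per cell cannot be told apart.

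Of the 46 genes tested, 33 had a negative log2 fold change (MSUS against control) and 13 a positive one, where 50.5% of all genes tested were negative. The median was -0.05, with a range from -0.29 to 0.17, against a median of 0.00 over all genes tested. Without *Surf4*, 32 of 45 were negative (71.1%) and the median was -0.04. The genes with a limma p under 0.05 were *Surf4*, *Tmed3*, *Arf1*, *Arf4* and *Ap1s1*, which makes 5 lower and 0 higher, or 4 of 45 (8.89%) lower without *Surf4*. Over all genes the same threshold called 2.4% lower, 3.02% higher and 5.42% in either direction. *Surf4* was chosen by this contrast and the other genes were chosen with its results known, so these counts are descriptions. Once p-values were adjusted over the 14421 genes (Benjamini-Hochberg), limma called 0 genes in the whole table and so 0 members, as did edgeR and DESeq2, while 781 genes had an unadjusted limma p under 0.05.

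**Figure D1:**
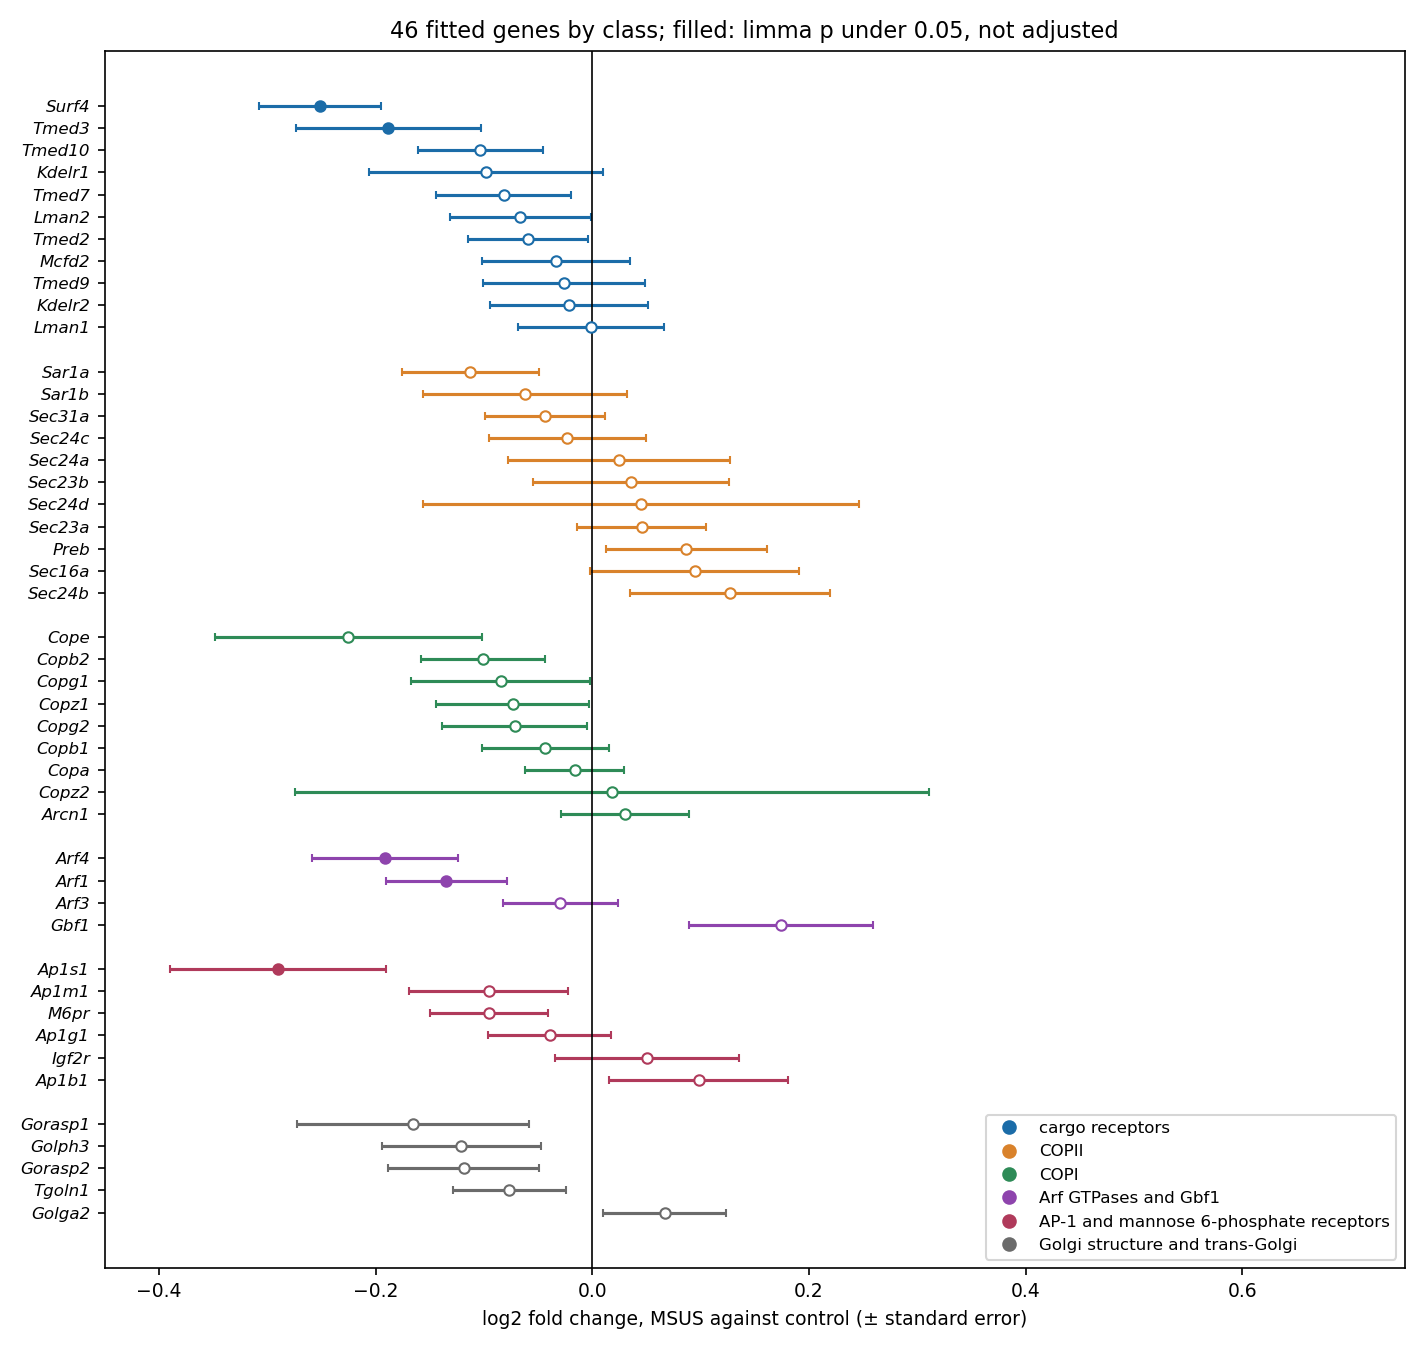
Log2 fold change (x axis) of the 46 genes tested, in the 6 classes described in the text. Points are limma estimates, bars are ± 1 standard error, and filled points have an unadjusted p under 0.05. All 11 cargo receptors lie below 0, while 7 of 11 COPII genes lie above it.

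The number of lower calls moved with single libraries, among these genes and over the whole table. Among these genes it was 3 without MSUS 5, MSUS 6, control 9 or control 12, and 8 without control 10. In the same order, it was 239, 263, 229, 268 and 509 over all genes tested, against 346 in the main fit. *Arf4* and *Ap1s1* kept a limma p under 0.05 with any 1 of the 13 libraries left out, *Arf1* in 8 and *Tmed3* in 5 of the 13 fits. With the *Malat1* level as a covariate, 1 call was left (*Surf4*), while 199 of all genes tested were called lower. The log2 fold change of *Tmed3* was then -0.0028 and that of *Arf1* -0.04, while *Arf4* stood at -0.16 and *Ap1s1* at -0.23. With the mitochondrial share as a covariate, 3 calls were left (*Surf4*, *Arf4* at -0.20 and *Ap1s1* at -0.24), and *Tmed3* and *Arf1* both stood at -0.09. That fit called 180 of all genes tested lower. How far *Malat1* or the mitochondrial share account for the lower values was not tested beyond these fits.

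Cargo receptors are the first class. *Surf4*, the mammalian homologue of yeast Erv29, exports soluble proteins from the ER and itself cycles between ER and Golgi. Its level was 6.20 log2 CPM in the lowest control sample, 6.30 at the median and 6.39 in the highest, against 5.97, 6.06 and 6.13 log2 CPM in MSUS samples. The 7 MSUS samples thus lay below each of the 6 controls. This came to a log2 fold change of -0.25 ± 0.06 (SE), a level 16.0% lower. It was the only one of the 46 genes whose groups did not overlap downwards, which 0.0555% of all genes did. None of the 46 had MSUS samples that were all above the controls, against 0.0763% of all genes. Since *Surf4* was chosen from this contrast, nothing is read from these shares. With *Malat1* as covariate the log2 fold change was -0.17, and in the other fits it lay between -0.20 and -0.27. The first rank of *Surf4* by p among lower genes held in the main fit but not in every other fit. It ranked 2 with edgeR and with DESeq2, 10 with the mitochondrial share and 27 with *Malat1* as covariate.

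*Surf4* lies in GRCm38 at chr2:26920040-26933928 on the minus strand, in the Surfeit locus of closely packed housekeeping genes. Its annotated exons share 144 bp with *Surf2* on the opposite strand. The library kit kept the strand, but whether the counting used it is not given in the sources used here. *Surf2* had a log2 fold change of 0.20 ± 0.12 (SE), opposite in sign to *Surf4*. The log2 fold changes of the other neighbours were -0.03 for *Surf1*, a cytochrome c oxidase assembly factor, -0.03 for the nucleolar *Surf6*, -0.14 for the Mediator subunit *Med22* and -0.10 for the ribosomal protein gene *Rpl7a*. None of these 5 neighbours had a limma p under 0.05.

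**Figure D2:**
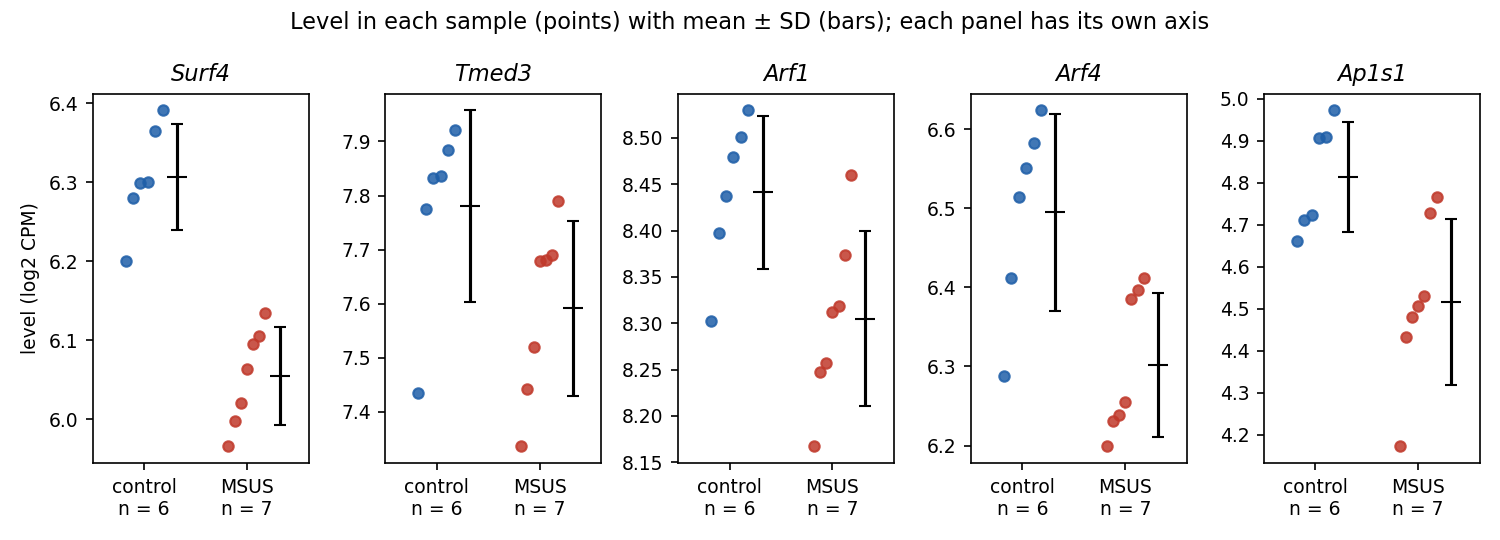
Level (y axis, log2 CPM, each panel with its own axis) of the 5 genes with an unadjusted limma p under 0.05, in 6 control (blue) and 7 MSUS (red) samples. Points are samples and bars are mean ± SD. The groups are apart for *Surf4* and overlap for the other 4 genes, and the lowest control point of *Tmed3* is control 10.

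*Tmed3*, a p24 protein that takes part in export of membrane cargo including Wnt ligands (chr9:89699206-89705068), had control levels of 7.43, 7.83 and 7.92 log2 CPM (lowest, median, highest) and MSUS levels of 7.34, 7.68 and 7.79 log2 CPM. The means were 7.78 ± 0.18 (SD, n = 6) and 7.59 ± 0.16 (SD, n = 7). The groups overlapped, and the lowest control sample (control 10) stood apart from the other 5. The log2 fold change was -0.19 ± 0.09 (SE; limma adjusted p = 0.878).

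The other 4 p24 genes among the 48 were negative as well, none with a limma p under 0.05. They were *Tmed10* (-0.10), *Tmed7* (-0.08), *Tmed2* (-0.06) and *Tmed9* (-0.03). Of the Tmed genes tested outside the 48, *Tmed1* and *Tmed5* (both -0.06) were negative. *Tmed4* (0.02) and *Tmed8* (0.20) were positive, and none of these had a limma p under 0.05. For *Tmed10*, all 7 MSUS samples were below the control mean, although the ranges overlapped (7.72 to 8.05 against 7.73 to 7.90 log2 CPM). *Tmed7* shares 838 bp of exon with *Ticam2* on its own strand, so its counts are uncertain. The lectins and their partner were close to 0. *Lman1*, which exports glycoproteins including coagulation factors together with *Mcfd2*, had a log2 fold change of -0.0009, *Mcfd2* of -0.03 and the related lectin *Lman2* of -0.07. The KDEL receptors, which return ER residents from the Golgi, gave -0.10 for *Kdelr1* and -0.02 for *Kdelr2*. In all, 11 of 11 cargo receptors among the 48 were negative (median -0.07; 10 of 10 and -0.06 without *Surf4*). Outside the 48, 10 other cargo receptor genes were tested. Of these, 6 were negative and 4 positive (median -0.06), none with a limma p under 0.05.

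COPII genes were divided. Of the 11 genes among the 48, 4 were negative and 7 positive, with a median of 0.04 and no limma p under 0.05. With 1 library left out, this median lay between -0.02 and 0.06, so its sign was not stable. Of 10 other COPII and ER exit genes tested outside the 48, 7 were negative and 3 positive (median -0.04). Among them, the outer coat gene *Sec13* gave -0.15 ± 0.09 (SE). The GTPase genes *Sar1a* (-0.11) and *Sar1b* (-0.06), the outer coat gene *Sec31a* (-0.04) and the cargo-binding *Sec24c* (-0.02) were negative. The positive ones were *Sec24a* (0.02), *Sec23b* (0.04), *Sec24d* (0.04), *Sec23a* (0.05), *Preb* (0.09), which encodes the exchange factor Sec12 that loads Sar1 with GTP, the scaffold gene of ER exit sites *Sec16a* (0.09) and *Sec24b* (0.13). *Sar1b*, the COPII gene with the highest level per kb of its longest transcript but not of its median transcript, had 5.39, 5.70 and 5.85 log2 CPM in controls (lowest, median, highest) and 5.32, 5.56 and 5.91 log2 CPM in MSUS samples. Its MSUS range thus enclosed the control range. *Preb* shares 1575 bp of exon with *Abhd1* on the other strand.

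COPI genes, which encode the coat of retrograde vesicles, were mostly negative, with 7 of 9 below 0, a median of -0.07 and no limma p under 0.05. *Cope* had the lowest value (-0.23 ± 0.12 SE), followed by *Copb2* (-0.10), *Copg1* (-0.08), *Copz1* (-0.07), *Copg2* (-0.07), *Copb1* (-0.04) and *Copa* (-0.02). *Copz2* (0.02 ± 0.29 SE) and *Arcn1* (0.03) were positive. *Copb2*, the most abundant of them per length, had 7.04, 7.16 and 7.22 log2 CPM in controls and 6.94, 7.05 and 7.18 log2 CPM in MSUS samples. Of its 7 MSUS samples, 3 lay below all controls. *Copg2* shares 912 bp of exon with *Mest* on the other strand, *Copg1* 941 bp with *Gm26636* and *Copa* 708 bp with *Gm37756*. Not all overlaps on the other strand are listed here. Those of *Ap1g1* with *Gm17344* (1435 bp) and of *Gorasp1* with *Wdr48* (1331 bp) were larger.

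Arf GTPases recruit COPI and AP-1 to Golgi membranes. *Arf1* (chr11:59211412-59228270), the main Golgi Arf, had 8.30, 8.46 and 8.53 log2 CPM in controls and 8.17, 8.31 and 8.46 log2 CPM in MSUS samples, with means of 8.44 ± 0.08 (SD, n = 6) and 8.30 ± 0.09 (SD, n = 7). The log2 fold change was -0.13 ± 0.06 (SE; limma adjusted p = 0.878), and 3 of 7 MSUS samples were below all controls.

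*Arf4* (chr14:26638074-26665084), which works with *Arf1* at the early Golgi, had 6.29, 6.53 and 6.62 log2 CPM in controls and 6.20, 6.26 and 6.41 log2 CPM in MSUS samples. The means were 6.49 ± 0.12 (SD, n = 6) and 6.30 ± 0.09 (SD, n = 7), and the log2 fold change was -0.19 ± 0.07 (SE; limma adjusted p = 0.878). All 7 MSUS samples were below the control mean and 4 were below all controls. *Arf4* shares 527 bp of exon with *Pde12* and 110 bp with *Arf4os*, both on the other strand. *Arf3* was close to 0 (-0.03). *Gbf1* encodes the exchange factor that activates Arf proteins at the cis-Golgi, and it had the highest log2 fold change of the 46 genes, 0.17 ± 0.08 (SE; limma adjusted p = 0.878). Its control samples lay between 6.10 and 6.52 log2 CPM and its MSUS samples between 6.32 and 6.70 log2 CPM. None of the 7 MSUS samples was below the control mean, but the ranges overlapped.

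The AP-1 adaptor has 4 kinds of subunit, and 3 of the 4 subunit genes among the 48 were negative (median -0.07). *Ap1s1*, which encodes the small sigma subunit (chr5:137034993-137046135), had 4.66, 4.81 and 4.97 log2 CPM in controls and 4.17, 4.51 and 4.77 log2 CPM in MSUS samples. The means were 4.81 ± 0.13 (SD, n = 6) and 4.52 ± 0.20 (SD, n = 7). The log2 fold change of -0.29 ± 0.10 (SE; limma adjusted p = 0.878) was the lowest of the 46 genes. All 7 MSUS samples were below the control mean and 5 were below all controls. The medium subunit gene *Ap1m1* gave -0.10, the gamma subunit gene *Ap1g1* -0.04 and the beta subunit gene *Ap1b1* 0.10. Of the AP-1 paralogues tested outside the 48, *Ap1g2* (0.26 ± 0.31 SE) and *Ap1m2* (0.12) were positive. *Ap1s2* (-0.05) and *Ap1s3* (-0.22) were negative, and none of these paralogues had a limma p under 0.05.

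Of the mannose 6-phosphate receptors, the cation-dependent *M6pr* gave -0.10 and the cation-independent *Igf2r* 0.05. *M6pr* had 7.19, 7.35 and 7.48 log2 CPM in controls and 7.19, 7.22 and 7.31 log2 CPM in MSUS samples, so the groups overlapped while 7 of 7 MSUS samples were below the control mean. Of 5 Golgi structure and trans-Golgi genes, 4 were negative (median -0.12), namely *Gorasp1* (-0.17) and *Gorasp2* (-0.12), which encode stacking proteins, *Golph3* (-0.12), which links Golgi membranes to actin, and the trans-Golgi protein gene *Tgoln1* (-0.08). *Golga2*, which encodes the tethering protein GM130, gave 0.07, and none of the 5 had a limma p under 0.05. *Tgoln1* had 8.57, 8.66 and 8.75 log2 CPM in controls and 8.48, 8.58 and 8.74 log2 CPM in MSUS samples, which overlapped over most of their range.

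Log2 fold changes were higher for genes with longer transcripts. Across the 46 genes, Spearman's rho between log2 fold change and the length of the longest annotated transcript was 0.53 (0.54 without *Surf4*), and it was 0.21 across the 13352 genes tested that had an annotated length. These are correlations across genes measured in the same libraries, and genes are not independent replicates. With GC content, rho was -0.08 for the 46 genes and 0.02 for all genes. Of the 7 genes with transcripts under 2000 bp, 6 were negative (median -0.10), and of the 19 between 2000 and 4000 bp, 17 were negative (median -0.10). Of the 20 longer genes, 10 were negative (median 0.01). Over all genes, the medians of the same length classes were -0.05, -0.02 and 0.04. Negative values were held there by 1838 of 2892, 2961 of 5353 and 1954 of 5107 genes. After removal of a length and GC trend within each sample, a setting chosen after the data had been seen, *Surf4*, *Tmed3* and *Ap1s1* kept a limma p under 0.05 while *Arf1* and *Arf4* did not.

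**Figure D3:**
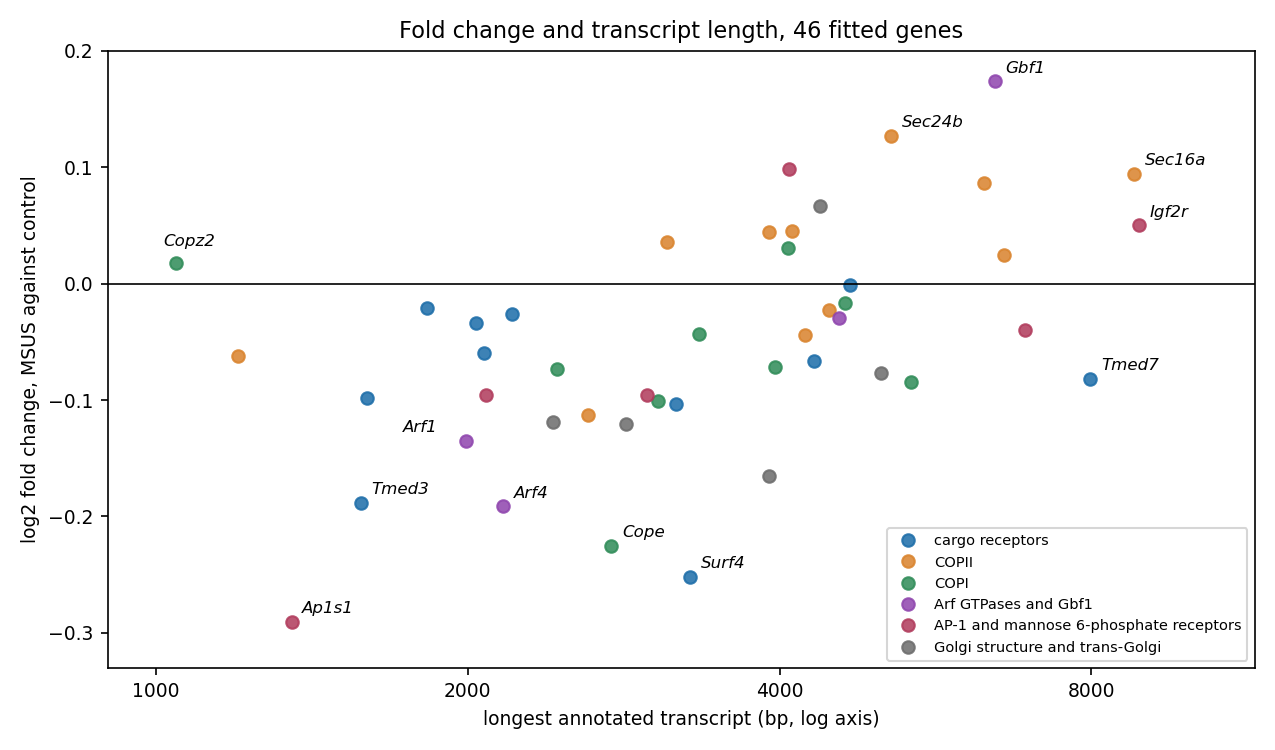
Log2 fold change (y axis, MSUS against control) against the longest annotated transcript (x axis, bp, log axis) of the 46 genes tested, coloured by class. Genes over 4000 bp lie around 0, while those under 4000 bp lie mostly below it.

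Levels between genes were compared in control samples as CPM per kb of the longest transcript. *Arf1* was highest with 175 ± 9.83 (SD, n = 6), followed by *Tmed3* with 140 ± 15.8, *Mcfd2* with 135 ± 9.18, *Tmed2* with 109 ± 7.28 and *Kdelr2* with 91.8 ± 10.8 CPM per kb. *Tmed3* and *Mcfd2* differed by less than their spread, and so did *Surf4* (24.1 ± 1.12 CPM per kb, rank 22 of 46) and *Sec24c* (23.6 ± 2.002). *Copz2* (1.80 ± 0.39) and *Sec24d* (1.69 ± 0.46 CPM per kb) were the lowest and also did not differ beyond their spread. The highest and lowest genes differed by 103-fold. On this scale *Tgoln1* (81.3 ± 3.74), *M6pr* (54.6 ± 3.59), *Copb2* (46.8 ± 2.001) and *Sar1b* (42.2 ± 4.45 CPM per kb) led their classes. The order depended on the transcript length used. With each gene's median transcript length, Spearman's rho with the first order was 0.58, and the classes were led by *Arf3*, *Mcfd2*, *Igf2r*, *Copb2*, *Sec16a* and *Golga2*, so that *Copb2* alone kept its lead.

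**Figure D4:**
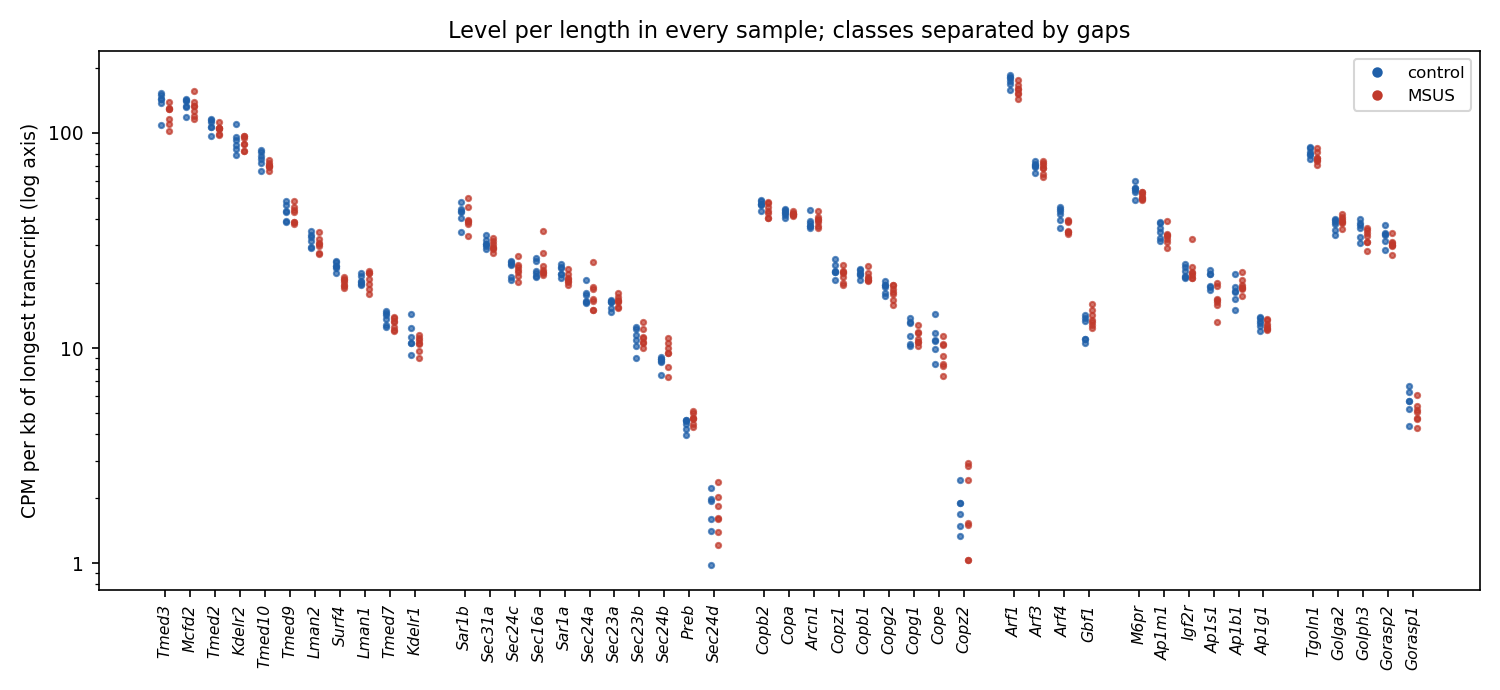
Level in CPM per kb of the longest transcript (y axis, log axis) of the 46 genes tested, in 6 control (blue) and 7 MSUS (red) samples, each point 1 sample. Classes are separated by gaps and, within a class, genes are ordered by their control mean. *Arf1* is highest, and *Sec24d* and *Copz2* lie far below the rest of their coats.

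Several coat proteins exist as paralogues that can replace each other, and 8 pairs were compared as log2 ratios per length within each sample. *Sec24c* exceeded *Sec24d* by 14.3-fold, with log2 ratios of 3.44 to 4.43 over the control samples, and *Copz1* exceeded *Copz2* by 12.8-fold, with 3.38 to 4.03. *Kdelr2* exceeded *Kdelr1*, with a log2 ratio of *Kdelr1* to *Kdelr2* of -3.01 ± 0.13 (SD, n = 6), and *Sec23a* exceeded *Sec23b* with a log2 ratio of 0.54 ± 0.17 (SD, n = 6). These pairs kept their order with median transcript lengths, whereas *Sar1a* to *Sar1b*, *Sec24a* to *Sec24b*, *Copg1* to *Copg2* and *Arf1* to *Arf3* did not, so no order is given for them.

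The difference between the groups in such a ratio does not depend on length. The differences in log2 ratio (MSUS minus control) ranged from -0.11 for *Arf1* to *Arf3* (exact permutation test over 1716 splits, two-sided, p = 0.0833, adjusted p = 0.667 over the 8 pairs) to 0.01 for *Sec23a* to *Sec23b*. The smallest p the design allows was 0.000583. The other 7 pairs had an adjusted p of 0.882 in the same exact test, so no shift between paralogues was detected at this sample size. Small shifts cannot be told from the spread between samples, which reached an SD of 0.60 in MSUS samples for *Copz1* to *Copz2*. That spread includes counting noise, since *Copz2* had 289 counts over all samples.

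Genes of the pathway outside the 48 were examined from a list by function, of which 74 of 79 were tested. Of these, 45 were negative and 29 positive (median -0.03), 4 had a limma p under 0.05 and a lower level, and 1 a higher level, or 5.41% lower where the same threshold called 2.4% of all genes. The lower ones were the SNARE gene *Ykt6* (-0.24 ± 0.07 SE), *Trappc3* of the TRAPP tether (-0.27 ± 0.09 SE), *Uso1*, which encodes the vesicle tether p115 (-0.11 ± 0.05 SE) and the *Golph3* paralogue *Golph3l* (-0.26 ± 0.12 SE). *Mia3*, which encodes TANGO1 for the export of collagen, was higher (0.13 ± 0.06 SE). *Ykt6* had 6.46 to 6.70 log2 CPM in controls and 6.26 to 6.66 log2 CPM in MSUS samples, and 6 of 7 MSUS samples were below all controls. Each of these 5 genes had an adjusted limma p of 0.878, and none kept an unadjusted limma p under 0.05 with *Malat1* as covariate. The log2 fold changes were then -0.13 for *Ykt6*, -0.15 for *Trappc3*, -0.11 for *Uso1*, -0.19 for *Golph3l* and 0.07 for *Mia3*. With the mitochondrial share as covariate, all but *Mia3* kept an unadjusted limma p under 0.05. With 1 library left out, *Ykt6* and *Trappc3* kept it in 13 of 13 fits, *Uso1* in 9, *Mia3* in 7 and *Golph3l* in 5. The 14 genes of the unfolded protein response that were tested, which answer an overload of the ER, had 6 negative and 8 positive values, a median of 0.03 and no limma p under 0.05.

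Promoters were examined for elements of the ER and Golgi stress responses, since these act on many genes of this route together. RefSeq windows on GRCm38.p6, from 250 bases before to 50 after a gene start, matched 40 of the 48 genes, and both strands were searched. The motifs were picked with the letters of these promoters in view, so the shares are descriptions. TGACGTGG, the core of the unfolded protein response element (UPRE) bound by XBP1 and ATF6, stood in the promoters of 7 of 40 genes (17.5%), against 0.714% of all 27025 gene symbols with a window and 0.96% of those tested. ACGTGGC, the Golgi apparatus stress response element (GASE) bound by TFE3, stood in 12 of 40 (30%), against 4.3% of the genes tested. The motifs overlap, since they share the letters ACGTGG. The ER stress response element (ERSE), CCAAT followed at a fixed distance by CCACG, stood in 0 of 40 and in 0.166% of the genes tested. The UPRE matches are shown with the motif in capitals, on the strand of the gene, 1 stretch for each gene.
Arf1 (chr11:59228228-59228257, minus strand): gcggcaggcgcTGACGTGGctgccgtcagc
Copb1 (chr7:114254690-114254719, minus strand): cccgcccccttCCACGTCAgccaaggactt
Copb2 (chr9:98563713-98563742, plus strand): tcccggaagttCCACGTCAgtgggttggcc
Gbf1 (chr19:46152535-46152564, plus strand): gaggctagttaCCACGTCAgtgagctgaca
Kdelr3 (chr15:79516367-79516396, plus strand): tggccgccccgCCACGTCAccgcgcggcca
Sec23a (chr12:59011993-59012022, minus strand): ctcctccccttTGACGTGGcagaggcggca
Sec24d (chr3:123267459-123267488, plus strand): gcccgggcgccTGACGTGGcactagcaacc

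The medians of the genes with a UPRE or a GASE match were not below those of the rest. The 6 tested genes with a UPRE match had a median log2 fold change of 0.00, with 3 negative, against -0.06 for the 33 without, of which 24 were negative. The 11 tested genes with a GASE match had a median of -0.03, with 8 negative, against -0.06 for the 28 without, of which 19 were negative. *Tmed3* held a GASE match, and *Arf1* held both motifs.

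The *Surf4* window held neither motif. It lay wholly within an exon of *Surf4* that GENCODE annotates and that begins upstream of the RefSeq start. It was rich in G and C (72.4%, against a median of 52.4% over 32851 windows) and held the GC box GGGGCGGGG, the letters bound by Sp1, which stood in 14 of 40 genes (35%) and in 23% of the genes tested. CRE, TGACGTCA, the element bound by CREB, stood in 2 of 40 (*Cope* and *Golph3*; 5%) and in 3.52% of the genes tested. The 14 tested genes with a GC box had a median log2 fold change of -0.01, with 7 negative. The 25 without had -0.07, with 20 negative. The 2 genes with a CRE had a median of -0.17, with 2 negative, against -0.04 for the 37 without, of which 25 were negative. These differences were not tested.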

How the data were processed

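Sertoli cell RNA of 6 control and 7 MSUS males was sequenced as single-end reads of 100 bp after 12 PCR cycles of library amplification. Per the labels and the study's methods, the authors trimmed reads (Trim Galore 0.6.5), assigned them with Salmon 1.1.0 to GENCODE transcripts and deposited estimated counts per gene, without normalization. How transcripts were summed to genes is not given in the sources used here.

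Estimated counts were rounded. Features without a gene name (27170 of 54281, with 20.7% to 26.7% of the counts of a sample) were left out. Genes that passed filterByExpr were normalized by TMM in edgeR 4.0.16 and tested with voom and limma 3.58.1 (R 4.3.3), with the group as the term. P-values were Benjamini-Hochberg adjusted over all genes tested. Levels are given as log2 CPM (prior count 2), whose precision is limited by the spread between mice. For genes with few counts, such as *Copz2* (289 over all samples), depth limits it as well. Paralogue ratios had 0.5 counts added. edgeR's quasi-likelihood test, DESeq2 1.42.0, other normalizations, filters and covariates, and leaving out each sample were alternatives. Length and GC content (92.6% of genes tested matched) and coordinates came from GENCODE vM21 on GRCm38. The scripts were tested on simulated data.

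The 48 genes and the lists were chosen with earlier results of these data known. Named genes were *Surf4*, members with a limma p under 0.05, the member of each class highest per length, pathway genes with a limma p under 0.05 and the Surfeit neighbours. All 48 members were accounted for by class. Litter and cage were not analysed here, so p-values treat mice as independent. No columns of the table were without a sample. Some promoter sequence is not reported here.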

Additional observations from a re-analysis of the deposited data

Results flagged for a closer look

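In 4 of 108 groups of values (a gene or a paralogue ratio in either the control or the MSUS samples), 1 sample stood apart from the rest by Dixon's criterion, where chance gives about 1 in 20 groups, or 5.4. For *Tmed3*, control 10 had 7.43 log2 CPM, while the next control sample had 7.77 and the highest 7.92. For *Sec24b*, control 9 had 5.27 log2 CPM, while the next had 5.47 and the highest 5.55. For *Arcn1*, control 12 had 7.48 log2 CPM, while the next had 7.30 and the lowest 7.20. For *Igf2r*, MSUS 26 had 8.16 log2 CPM, while the next had 7.73 and the lowest 7.56. These flagged samples differ from gene to gene. Without being flagged there, MSUS 26 was also the highest MSUS sample for *Sec16a* (8.26 log2 CPM) and *Sec24a* (7.37 log2 CPM). It was the lowest MSUS sample for *Cope* (4.36 log2 CPM) and *Copg2* (5.98 log2 CPM).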

How the results depend on the processing

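The number of genes with a limma p under 0.05 over the whole table (781) was 1182 with no count filter, 1204 with the elongated spermatid score, 403 with the mitochondrial share and 401 with the *Malat1* level as covariate. With a sample left out, it was 534 to 1121. Members lower in MSUS with such a p (5) numbered 8 with sample quality weights, 3 with the mitochondrial share, 1 with *Malat1*, 3 after removal of the length and GC trend (added after seeing the data) and 3 to 8 with a sample left out. Members higher (0) numbered 1 with quality weights (*Gbf1*), 1 with the filter of 1 CPM in 6 samples (*Gbf1*), 2 with the spermatid score (*Sec16a* and *Gbf1*) and 0 to 2 with a sample left out. The latter were *Gbf1* without control 10, control 22, control 24 or MSUS 23, and *Sec24b* and *Gbf1* without MSUS 13. The *Surf4* log2 fold change was -0.17 with *Malat1* as covariate. Over all alternatives to the fit, 30 to 35 of the members had a negative value. Of paralogue log2 ratios, leaving out a sample gave group differences of -0.20 to 0.041 for *Copz1* to *Copz2*, -0.15 to 0.045 for *Sec24c* to *Sec24d*, -0.060 to 0.030 for *Copg1* to *Copg2*, -0.023 to 0.063 for *Sec23a* to *Sec23b* and -0.13 to 0.016 for *Sar1a* to *Sar1b*. With median transcript lengths, a choice made after seeing the data, log2 ratios in controls turned to 0.96 for *Sar1a* to *Sar1b*, -0.59 for *Sec24a* to *Sec24b*, 0.11 for *Copg1* to *Copg2* and -1.79 for *Arf1* to *Arf3*. The cause of these moves was not tested. No paired analysis was possible because the groups share no replicate number.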
